A study of Homo sapiens with 12 samples.

Results

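Cells make cholesterol and fatty acids from acetyl-CoA, and a single family of transcription factors, the sterol regulatory element-binding proteins (SREBPs), turns on the genes for both routes. SREBPs are made as precursors in the endoplasmic reticulum membrane. When sterols are low, the escort protein SCAP carries them to the Golgi, where proteases release the part that enters the nucleus. When sterols are high, the INSIG proteins hold SCAP back, so the pathway shuts itself off. Fibroblasts use the products for membranes, and dividing cells need them to build daughter cells. Surplus sterol is oxidized to oxysterols, which activate the liver X receptors (LXRs) and their targets for cholesterol export.

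The mRNAs of 32 genes of these routes were followed in RNA-seq of WI-38, a line of human diploid fibroblasts from fetal lung. The genes were chosen by name as 5 regulators, 7 enzymes of the mevalonate pathway, 11 enzymes that make squalene and turn it into cholesterol, 2 sterol transporters and 7 enzymes of fatty acid synthesis, elongation and desaturation. Of the 32, 31 were matched among the 57773 genes of the count files, and all 31 were abundant enough to be tested. ACACA, the gene of the enzyme that commits acetyl-CoA to fatty acids, was not matched and was not analysed here.

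All cells carried a pool of siRNAs at 25 nM and were at population doublings 15 to 25. The siCtrl_Prolif group received a non-targeting pool and was kept proliferating for 8 days in vehicle (DMSO). The siCtrl_Sen group received the same pool and was made senescent with 50 µM etoposide, a topoisomerase II poison that breaks DNA, for 8 days. The siNTRK2_Sen and siBDNF_Sen groups received the same etoposide after silencing of NTRK2, which encodes the neurotrophin receptor TrkB, or of BDNF, which encodes its ligand. Each group had 3 libraries of 1 cell line, so the p-values below measure the spread between these libraries, which may be technical. Drug and cell division differ together between siCtrl_Prolif and siCtrl_Sen and cannot be told apart. In bulk RNA, fewer cells expressing a gene and less RNA per cell cannot be told apart.

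The libraries held 31567912 to 72328151 counts in genes. NTRK2 had 7, 15 and 10 counts in the siCtrl_Sen libraries and 0 in each siNTRK2_Sen library, so its silencing was seen only against a very low level. BDNF stood at 161, 157 and 169 CPM (counts scaled to library size with edgeR's TMM factors) in siCtrl_Sen and at 48.1, 48.9 and 44.3 CPM in siBDNF_Sen. It was higher in siNTRK2_Sen than in siCtrl_Sen, by 0.33 on the log2 scale (edgeR adjusted p under 0.05). NTRK2 differed by 0.94 in siBDNF_Sen against siCtrl_Sen, without passing that threshold. Neither gene passed it in siCtrl_Sen against siCtrl_Prolif. Growth arrest was visible in senescent siCtrl cells, where the proliferation marker MKI67 changed by -3.68 and the cell cycle inhibitor CDKN1A by 1.62 on the log2 scale. In siNTRK2_Sen against siCtrl_Sen, MKI67 differed by 1.72 and CDKN1A by -0.50, and in siBDNF_Sen against siCtrl_Sen by 0.91 and -0.04 (log2). All 8 fibroblast markers were present, at a summed 23048 to 33775 CPM per library, whereas those of adipocytes and hepatocytes, the cell types best known for these routes, summed to at most 1.16 and 0.372 CPM.

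RefSeq (GRCh38.p14) windows from 250 bases before to 50 bases after the transcription start were used for 27 of the 31 genes, 35 in all. No window of ACAT2, FDFT1, SQLE or FASN was used, so the member shares below leave these genes out. Short motifs of 3 kinds were looked for on both strands: the core of a sterol regulatory element (TCACNCCAC), where SREBPs bind, and the cores for their usual partners NF-Y (CCAAT) and Sp1 (GGGCGG). The NF-Y core was in 22 of the 35 windows (62.9%), against 34.6% of all 35116 windows of this length, and the Sp1 core in 32 (91.4%), against 45.0% of all windows and 56.3% of those of protein-coding genes. The strict sterol element core was in 1 window, that of SREBF2 (2.86% of the member windows, 1.13% of all). SREBPs also bind other forms of the element, so the letters searched do not list their sites. Shown here are the windows of the 4 members with the strongest decrease in senescence and that of SREBF2, 5′ to 3′ on the gene's own strand, with every motif match in capitals. They lie at chr7:155297628-155297927 (+) for INSIG1, chr10:100346983-100347282 (+) for SCD, chr4:165327419-165327718 (+) for MSMO1, chr5:43313363-43313662 (−) for the first of the 2 windows of HMGCS1, and chr22:41832855-41833154 (+) for SREBF2.
INSIG1: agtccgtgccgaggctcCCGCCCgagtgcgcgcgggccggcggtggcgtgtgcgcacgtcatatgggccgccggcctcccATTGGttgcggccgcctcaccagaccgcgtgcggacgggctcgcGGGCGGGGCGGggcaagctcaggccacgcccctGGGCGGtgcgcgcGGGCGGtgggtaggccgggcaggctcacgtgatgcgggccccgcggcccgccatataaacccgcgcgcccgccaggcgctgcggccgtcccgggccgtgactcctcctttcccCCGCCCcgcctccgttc
SCD: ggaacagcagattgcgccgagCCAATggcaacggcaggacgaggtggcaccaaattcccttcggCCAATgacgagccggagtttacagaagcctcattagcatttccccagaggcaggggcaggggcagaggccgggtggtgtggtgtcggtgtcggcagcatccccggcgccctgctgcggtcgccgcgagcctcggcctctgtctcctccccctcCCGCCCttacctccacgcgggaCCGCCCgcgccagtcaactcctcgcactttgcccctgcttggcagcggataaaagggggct
MSMO1: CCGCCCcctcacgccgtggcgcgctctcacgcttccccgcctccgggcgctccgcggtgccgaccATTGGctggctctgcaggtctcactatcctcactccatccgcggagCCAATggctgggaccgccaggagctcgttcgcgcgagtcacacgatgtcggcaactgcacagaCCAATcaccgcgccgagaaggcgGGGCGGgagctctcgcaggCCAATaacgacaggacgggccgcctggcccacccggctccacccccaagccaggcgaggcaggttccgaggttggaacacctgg
HMGCS1: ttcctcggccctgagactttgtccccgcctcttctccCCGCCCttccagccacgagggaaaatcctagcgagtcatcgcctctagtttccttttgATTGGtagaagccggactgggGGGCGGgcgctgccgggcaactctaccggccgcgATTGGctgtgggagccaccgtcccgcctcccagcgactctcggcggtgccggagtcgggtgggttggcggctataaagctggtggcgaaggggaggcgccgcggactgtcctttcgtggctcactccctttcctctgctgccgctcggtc
SREBF2: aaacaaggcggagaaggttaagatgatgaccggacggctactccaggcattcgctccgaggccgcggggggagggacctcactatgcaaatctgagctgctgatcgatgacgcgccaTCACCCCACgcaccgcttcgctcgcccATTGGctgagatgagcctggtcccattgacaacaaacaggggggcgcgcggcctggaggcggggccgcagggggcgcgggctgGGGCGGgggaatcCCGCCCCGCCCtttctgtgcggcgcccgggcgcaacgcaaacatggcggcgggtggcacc
The INSIG1 window held 1 NF-Y core and 6 Sp1 cores, some of them overlapping, that of SCD 2 and 2, that of MSMO1 4 and 2, and that of HMGCS1 2 and 2. In the SREBF2 window the sterol element core began 133 bases before the start and an NF-Y core 106 bases before it. A match in these letters is a description of the sequence and says nothing of binding in these cells.

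Etoposide-induced senescence came with lower mRNA levels of most of the genes. In siCtrl_Sen against siCtrl_Prolif, 23 of the 31 fell and 4 rose by edgeR's quasi-likelihood test (adjusted p under 0.05 over 21518 genes), beside 28.3% of all tested genes that fell and 29.8% that rose. The median log2 fold change of the 31 was -0.47, and that of all tested genes was 0.02. The 6 genes INSIG1, SCD, MSMO1, HMGCS1, ACAT2 and STARD4 fell by more than 2-fold, as did 5.17% of all tested genes. Summed over the 18 enzymes from acetoacetyl-CoA to cholesterol, the level went from 1371 ± 29.0 to 937 ± 26.5 CPM, and over the 6 fatty acid genes from 1815 ± 33.0 to 1266 ± 7.73 CPM (mean ± SD, n = 3). All 27 calls held under every other test, scaling, filter and offset tried and with any single library left out.

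**Figure D1:**
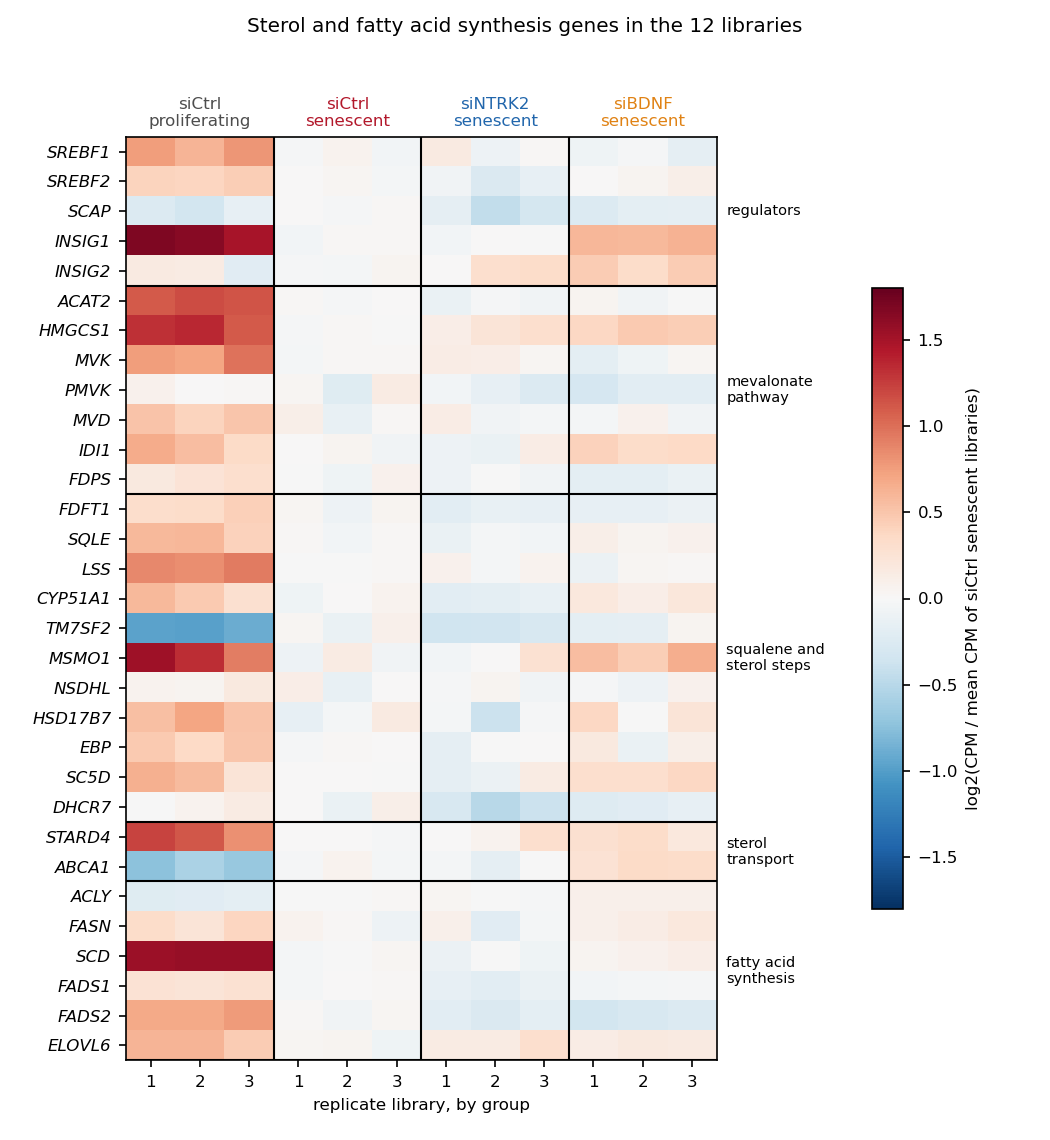
Level of each of the 31 genes (rows, grouped by role) in each of the 12 libraries (columns, grouped by condition), as log2 of CPM over the mean CPM of the siCtrl_Sen libraries. Red is above that mean and blue below it. The proliferating columns are red for most rows, with INSIG1 and SCD strongest, and blue for TM7SF2 and ABCA1, while in the siBDNF_Sen columns INSIG1, HMGCS1 and MSMO1 are red.

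Among the regulators, INSIG1, whose protein retains SCAP and whose gene is itself an SREBP target, fell the most of all 31. It lies at chr7:155089486-155101945 (ENSG00000186480) in the GRCh37 build that the counts use. The 3 proliferating libraries held 109, 107 and 96.2 CPM and the 3 senescent ones 33.3, 34.7 and 34.99 CPM. The groups were far apart, with a log2 fold change of -1.60 ± 0.053 (SE; edgeR adjusted p = 2.11e-20), or 3.04-fold lower. SREBF1, the gene of the SREBP that favours fatty acid synthesis, went from 64.00, 58.5 and 65.9 to 37.7, 39.8 and 36.98 CPM, a change of -0.72 ± 0.062 (SE; edgeR adjusted p = 6.11e-11) without overlap. SREBF2, the gene of the SREBP that favours cholesterol synthesis, fell by less (-0.41 ± 0.049 SE, edgeR adjusted p = 3.32e-08). SCAP moved the other way, by 0.24 ± 0.058 (SE; edgeR adjusted p = 7.92e-04). INSIG2, the second retention protein, stood at 7.87 ± 1.10 CPM in proliferating and 7.64 ± 0.242 CPM in senescent cells (mean ± SD, n = 3), a difference of -0.05 with a 95% interval of -0.26 to 0.15.

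In the mevalonate pathway, 6 of 7 genes fell. HMGCS1 (chr5:43287572-43313614, GRCh37), which makes HMG-CoA, held 94.97, 97.7 and 82.3 CPM in the proliferating libraries and 37.6, 38.9 and 38.1 CPM in the senescent ones. Every proliferating library was far above every senescent one, and the change was -1.26 ± 0.060 (SE; edgeR adjusted p = 7.26e-17). ACAT2, the cytosolic thiolase that supplies HMGCS1, went from 104, 110.4 and 106 CPM to 49.2, 47.8 and 49.01 CPM, a change of -1.14 ± 0.049 (SE; edgeR adjusted p = 9.61e-18). MVK, mevalonate kinase, went from 26.5, 25.9 and 31.1 to 15.4, 15.99 and 15.9 CPM (-0.81 ± 0.075 SE, edgeR adjusted p = 2.03e-10). In both genes the 2 groups did not overlap. Exons of ACAT2 overlap those of TCP1, SOD2 and SOD2-OT1, and exons of MVK those of MMAB, on the other strand. TCP1 changed by -0.28 and MMAB by -0.92, and how reads were divided between the overlapping genes was not tested. IDI1, the isopentenyl diphosphate isomerase, held 82.3, 76.6 and 66.1 CPM and then 52.3, 53.9 and 49.7 CPM, a change of -0.53 ± 0.067 (SE; edgeR adjusted p = 1.49e-07). MVD, which makes isopentenyl diphosphate, fell by 0.47 and FDPS, which joins the isoprene units into farnesyl diphosphate, by 0.24 on the log2 scale. PMVK, the second kinase, was not called, at -0.04 with a 95% interval of -0.19 to 0.12.

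Of the 11 genes from squalene to cholesterol, 8 fell and 1 rose. MSMO1 (chr4:166248819-166264316), the oxidase that begins removal of the methyl groups, showed the largest decrease of these and also the widest spread, with 114, 99.3 and 74.9 CPM in proliferating and 37.1, 44.1 and 37.9 CPM in senescent libraries. The groups did not overlap and the change was -1.28 ± 0.15 (SE; edgeR adjusted p = 6.66e-05). LSS, which closes the sterol rings, went from 155, 153 and 163 to 84.7, 84.6 and 86.8 CPM (-0.88 ± 0.048 SE, edgeR adjusted p = 2.38e-15). SQLE, the epoxidase before it and a rate-limiting step, went from 114, 116 and 102 to 77.4, 74.4 and 78.1 CPM (-0.53 ± 0.050 SE, edgeR adjusted p = 3.44e-10). HSD17B7, a ketoreductase of the same route, was the least abundant per kilobase of exon in siCtrl_Sen and went from 6.89, 7.71 and 6.74 to 4.26, 4.63 and 5.30 CPM (-0.59 ± 0.13 SE, edgeR adjusted p = 1.95e-04). In each of these genes every senescent library lay below every proliferating one. SC5D, CYP51A1, EBP and FDFT1 fell by 0.50, 0.46, 0.44 and 0.36 on the log2 scale. AKAP9, whose exons overlap those of CYP51A1 on the other strand, changed by 0.63, and how reads were divided was not tested.

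TM7SF2, a sterol reductase that works in parallel with another enzyme, rose, unlike the other sterol enzymes called. It held 4.86, 4.81 and 5.11 CPM in proliferating and 9.66, 8.70 and 10.04 CPM in senescent libraries, the groups were well separated, and the change was 0.94 ± 0.10 (SE; edgeR adjusted p = 3.86e-09). Its exons overlap those of VPS51 on the same strand, and VPS51 changed by -0.35. How reads in the shared exons were divided was not tested. NSDHL and DHCR7, which act in methyl removal and in the last reduction to cholesterol, were not called, at -0.10 (95% interval -0.22 to 0.03) and -0.07 (-0.18 to 0.04).

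The transporters went in opposite directions. STARD4, which carries sterol between membranes inside the cell and is an SREBP target, held 31.9, 29.8 and 24.2 CPM in proliferating and 13.8, 13.8 and 13.6 CPM in senescent libraries. That was a change of -1.07 ± 0.087 (SE; edgeR adjusted p = 1.60e-11) with no overlap. ABCA1 (chr9:107543287-107690436), the LXR target that exports cholesterol to apolipoproteins, held 21.1, 23.7 and 21.8 and then 34.6, 36.5 and 34.2 CPM. All senescent libraries were higher, by 0.66 ± 0.061 (SE; edgeR adjusted p = 2.45e-10), or 1.58-fold.

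In fatty acid synthesis, 5 of 6 genes fell. SCD (chr10:102106990-102124583), which puts the first double bond into saturated fatty acids, was among the 2 most abundant of the 31 genes per kilobase of exon (111 CPM per kb in proliferating and 37.8 in senescent cells). Its level was 577, 584 and 587 CPM in proliferating and 194, 197 and 203 CPM in senescent libraries, with a spread within groups that was small beside the change of -1.56 ± 0.043 (SE; edgeR adjusted p = 3.31e-22) or 2.94-fold lower. FADS2, which starts the making of long polyunsaturated fatty acids, went from 346, 345 and 367 to 220.0, 207 and 221 CPM (-0.71 ± 0.045 SE, edgeR adjusted p = 5.92e-14). ELOVL6, which lengthens palmitate, went from 41.2, 41.3 and 37.1 to 27.5, 27.8 and 25.5 CPM (-0.57 ± 0.062 SE, edgeR adjusted p = 6.39e-09). For all 3 genes the senescent libraries were below the proliferating ones without overlap. FASN, the fatty acid synthase itself, fell by only 0.32 and the partner desaturase FADS1 by 0.26 (log2). ACLY, which makes cytosolic acetyl-CoA for both routes and was the most abundant per kilobase in senescent cells (92.5 CPM per kb), rose slightly, by 0.20 ± 0.040 (SE; edgeR adjusted p = 1.23e-04). Exons of FADS2 overlap those of FADS1 on the other strand and those of FEN1, a DNA replication gene that changed by -0.99. How the shared reads were divided was not tested.

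**Figure D2:**
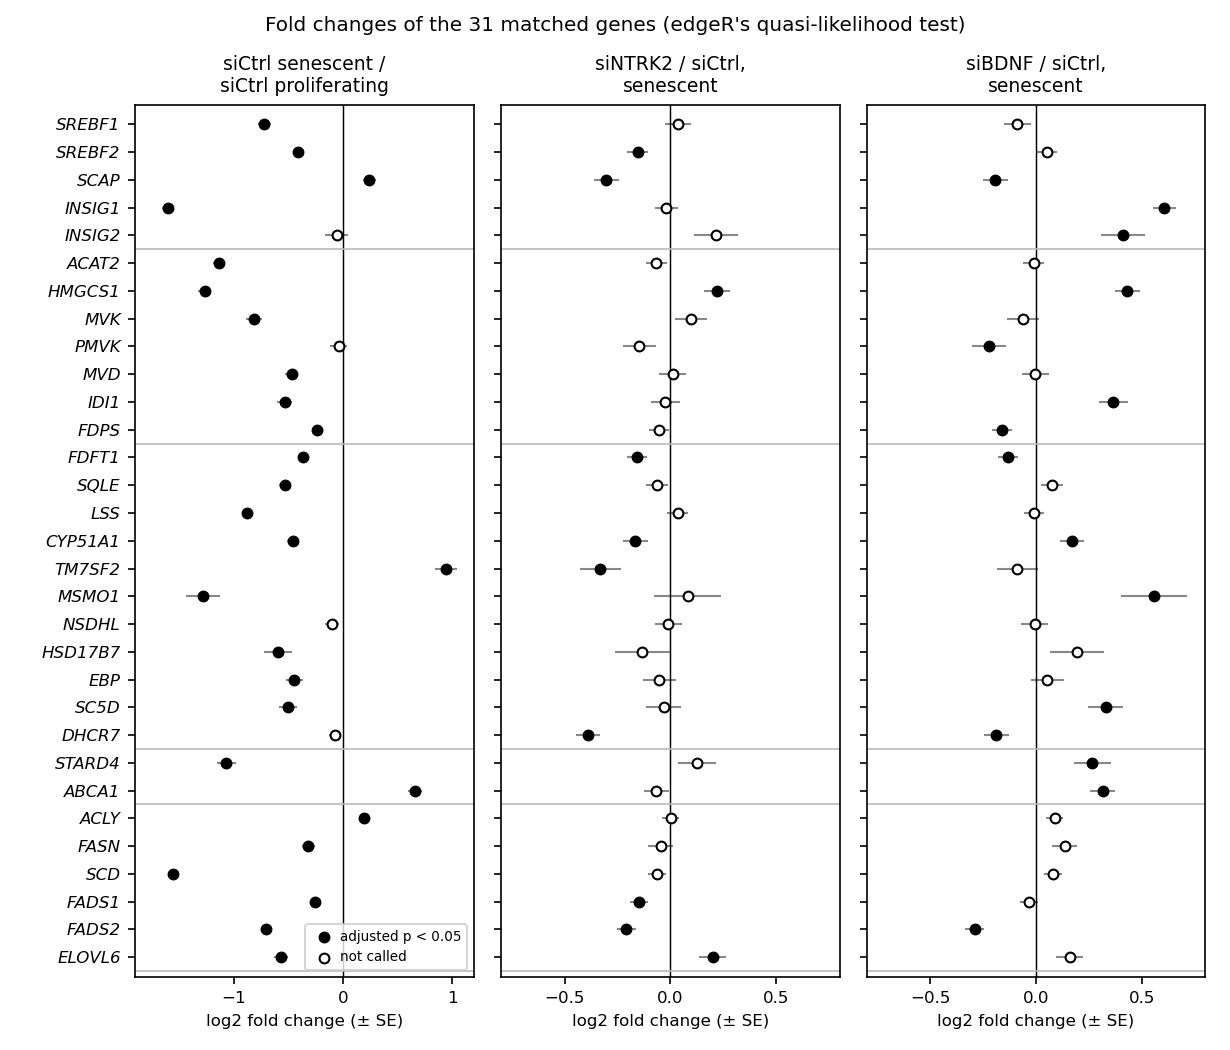
Log2 fold change with its standard error for each of the 31 genes, in order of role, in siCtrl_Sen against siCtrl_Prolif (left), siNTRK2_Sen against siCtrl_Sen (middle) and siBDNF_Sen against siCtrl_Sen (right). Filled points are genes called at an adjusted p under 0.05. The left scale is wider, from -1.60 (INSIG1) to 0.94 (TM7SF2), while the silencing changes lie between -0.39 and 0.61.

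Among the proliferating libraries, replicate 1 held the lowest value for 7 of the 31 genes, replicate 2 for 13 and replicate 3 for 11. The median change of the 31 genes was -0.44, -0.50 and -0.53 without each of them in turn. Fibroblast markers moved with the same comparison: 6 of the 8 fell and 1 rose, and their summed level was 31837 to 33775 CPM in siCtrl_Prolif and 23048 to 24836 CPM in siCtrl_Sen. Markers of other cell types also moved. Both adipocyte markers that could be tested, of 4 listed, were called higher, and the 4 summed to at most 0.0538 CPM in siCtrl_Prolif, with 3 of them at 0 in every library, and to 0.482 to 1.14 CPM in siCtrl_Sen. Both tested immune markers, of 3 listed, were also called higher, with sums of 0.157 to 0.215 and 1.35 to 1.76 CPM, as were the 1 tested endothelial marker (sums of 0.379 to 1.13 and 1.90 to 2.27 CPM) and 2 of 3 epithelial markers (39.4 to 42.6 and 41.5 to 50.3 CPM). The part of these shifts in the changes of the lipid genes was not tested.

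The silencing groups ask what follows in senescent cells when the mRNA of the ligand or of its receptor is lowered. Each target was silenced with its own pool of siRNAs, so effects of the target and other effects of the pool cannot be told apart. Both groups were compared with the same 3 siCtrl_Sen libraries, so the 2 sets of values share their control and are given side by side. With siBDNF, 9 of the 31 genes rose and 6 fell, beside 10.4% and 10.1% of all tested genes. The 9 were INSIG1, MSMO1, HMGCS1, INSIG2, IDI1, SC5D, ABCA1, STARD4 and CYP51A1, and the 6 were FADS2, PMVK, SCAP, DHCR7, FDPS and FDFT1. The median of the 31 was 0.05. The split moved with the scaling: it was 13 higher and 1 lower when library totals alone set the scale, and 11 and 4 with an offset for gene length and GC content. With siNTRK2, 2 genes rose (HMGCS1 and ELOVL6) and 8 fell (DHCR7, TM7SF2, SCAP, FADS2, CYP51A1, FDFT1, SREBF2 and FADS1), beside 11.2% and 10.1% of all tested genes, with a median of -0.05. No member changed by 2-fold in either. Of the 8 fibroblast markers, 1 rose and 5 fell with siBDNF, and 5 rose and 1 fell with siNTRK2. Of the 6 markers of proliferation and arrest, 4 rose and 2 fell with siNTRK2, and 1 rose with siBDNF. The part of these markers in the changes of the 31 genes was not tested.

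Of the regulators, INSIG1 had the largest response. It held 51.9, 51.6 and 53.2 CPM in the siBDNF_Sen libraries and 33.02, 34.4 and 34.2 CPM in the siNTRK2_Sen libraries, beside 33.3, 34.7 and 34.99 CPM in siCtrl_Sen. All siBDNF_Sen values lay above those of both other senescent groups and below all proliferating ones. The change with siBDNF was 0.61 ± 0.054 (SE; edgeR adjusted p = 2.25e-09), or 1.52-fold, while that with siNTRK2 was -0.02 with a 95% interval of -0.13 to 0.09. INSIG2 rose with siBDNF by 0.41 ± 0.10 (SE; edgeR adjusted p = 0.00488). SCAP fell with both, at -0.30 ± 0.058 (SE; edgeR adjusted p = 3.40e-04) with siNTRK2 and -0.19 ± 0.058 (SE; edgeR adjusted p = 0.0174) with siBDNF. SREBF2 fell with siNTRK2 by a small step (-0.15 ± 0.049 SE, edgeR adjusted p = 0.0237) and stood at 0.05 with siBDNF (95% interval -0.04 to 0.15). SREBF1 was at 42.6, 35.9 and 38.7 CPM with siNTRK2 and 36.2, 37.5 and 33.97 CPM with siBDNF, which overlapped the siCtrl_Sen values in both, at 0.04 (-0.09 to 0.16) and -0.09 (-0.21 to 0.03).

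**Figure D3:**
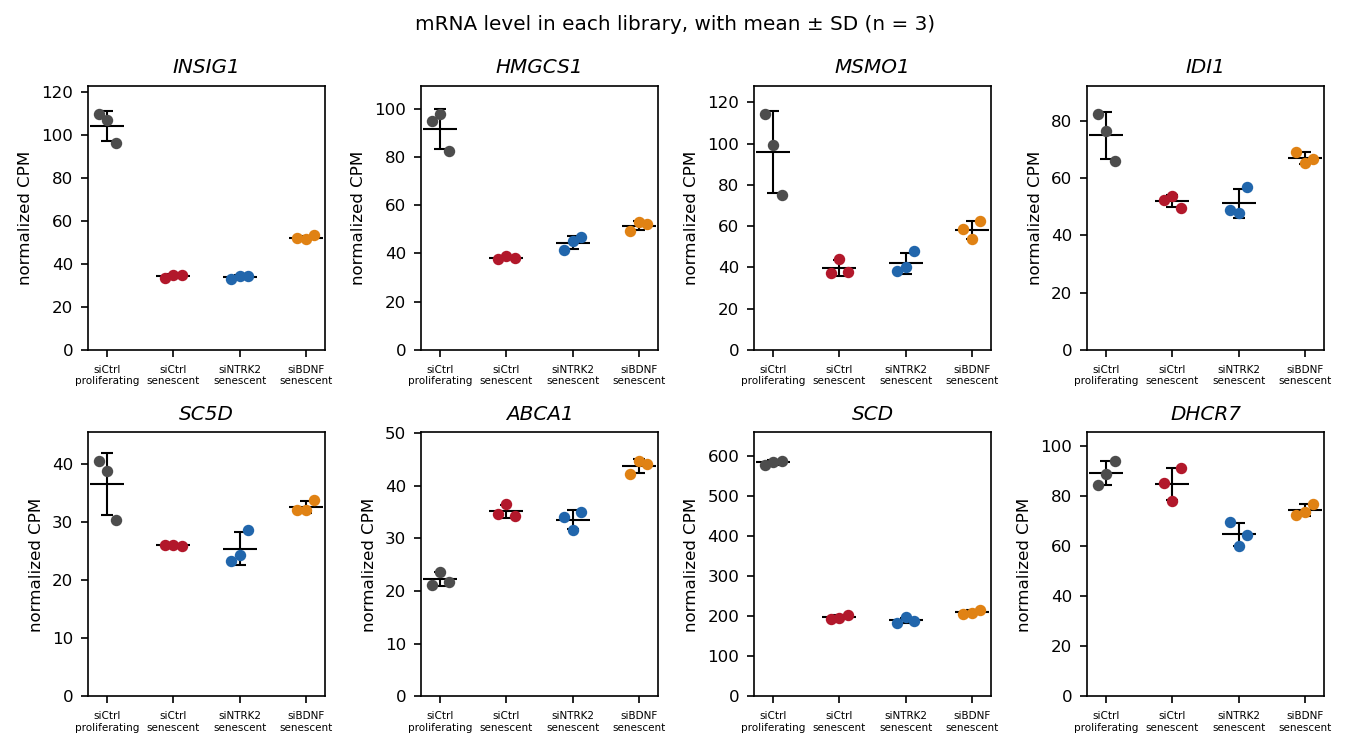
Normalized CPM of 8 genes in each library (points), with the mean and SD of each group (bars, n = 3), on axes that start at 0. The siBDNF_Sen points of INSIG1, HMGCS1, IDI1, SC5D and ABCA1 lie above all siCtrl_Sen points, those of SCD differ little from them, and the siNTRK2_Sen points of DHCR7 lie below them.

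Of the mevalonate genes, HMGCS1 rose in both silencings. Its values were 49.4, 52.8 and 52.2 CPM with siBDNF and 41.6, 44.97 and 46.99 CPM with siNTRK2, and neither group overlapped siCtrl_Sen. The changes were 0.43 ± 0.060 (SE; edgeR adjusted p = 5.77e-06) and 0.22 ± 0.060 (SE; edgeR adjusted p = 0.00879), in that order. IDI1 held 69.1, 65.2 and 66.7 CPM with siBDNF, above all siCtrl_Sen libraries, and 48.9, 47.7 and 56.8 CPM with siNTRK2, around them. Its change with siBDNF was 0.37 ± 0.067 (SE; edgeR adjusted p = 2.67e-04). FDPS and PMVK fell with siBDNF by 0.16 and 0.22 on the log2 scale. For ACAT2 the silencing groups held 44.9, 48.1 and 46.5 CPM (siNTRK2) and 50.2, 46.4 and 48.6 CPM (siBDNF), and for MVK 17.3, 17.1 and 16.2 and 13.98, 14.9 and 16.2 CPM, with no call in either comparison.

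Of the sterol enzymes, MSMO1 held 58.5, 53.9 and 62.6 CPM with siBDNF and 38.2, 40.1 and 47.8 CPM with siNTRK2. The siBDNF_Sen libraries were above all siCtrl_Sen ones, by 0.56 ± 0.16 (SE; edgeR adjusted p = 0.0338), whereas the siNTRK2 difference was 0.08 with a wide interval (-0.23 to 0.39). SC5D, which acts near the end of the route, rose with siBDNF by 0.33 ± 0.083 (SE; edgeR adjusted p = 0.00519). CYP51A1, the lanosterol demethylase, rose with siBDNF, at 0.17 ± 0.058 (SE; edgeR adjusted p = 0.035), and fell with siNTRK2, at -0.17 ± 0.058 (SE; edgeR adjusted p = 0.0416). CYP51A1 overlaps AKAP9 on the other strand, a gene that changed by 0.76 with siBDNF and 0.78 with siNTRK2. Exons of ENSG00000285772 and ENSG00000289027 also overlap those of CYP51A1, on the same strand. How reads were divided between these genes was not tested. DHCR7 fell with both, and more with siNTRK2 (-0.39 ± 0.058 SE, edgeR adjusted p = 1.30e-05) than with siBDNF (-0.19 ± 0.058 SE, edgeR adjusted p = 0.0202). TM7SF2 held 7.37, 7.44 and 7.77 CPM with siNTRK2, a change of -0.33 ± 0.097 (SE; edgeR adjusted p = 0.0139), and 8.36, 8.46 and 9.78 CPM with siBDNF, which overlapped siCtrl_Sen. FDFT1, squalene synthase, fell by 0.16 with siNTRK2 and 0.13 with siBDNF. The levels of LSS, SQLE and HSD17B7 with siNTRK2 and siBDNF were 83.1 to 90.2 and 79.7 to 87.3 CPM, 70.6 to 75.1 and 79.0 to 82.7 CPM, and 3.61 to 4.67 and 4.70 to 6.14 CPM, none of them called against siCtrl_Sen.

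ABCA1, already raised in senescent cells, held 42.1, 44.7 and 44.1 CPM with siBDNF, higher than in every other library, and 34.1, 31.5 and 34.9 CPM with siNTRK2. The siBDNF change was 0.32 ± 0.059 (SE; edgeR adjusted p = 2.76e-04), and the siNTRK2 value was -0.07 with a 95% interval of -0.18 to 0.05. STARD4 was at 16.7, 17.2 and 15.6 CPM with siBDNF, above siCtrl_Sen by 0.27 ± 0.089 (SE; edgeR adjusted p = 0.0323), and at 13.7, 14.3 and 16.9 CPM with siNTRK2.

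Of the fatty acid genes, SCD was at 205, 208 and 215 CPM with siBDNF and 183, 197 and 188 CPM with siNTRK2, with changes of 0.08 (-0.0036 to 0.16) and -0.06 (-0.15 to 0.02) that were not called. FADS2 fell in both, to 172, 176 and 181 CPM with siBDNF (-0.29 ± 0.045 SE, edgeR adjusted p = 2.46e-05) and to 189.9, 179.7 and 191 CPM with siNTRK2 (-0.21 ± 0.045 SE, edgeR adjusted p = 0.0011). ELOVL6 rose with siNTRK2 to 29.8, 29.7 and 33.3 CPM (0.20 ± 0.063 SE, edgeR adjusted p = 0.0224) and stood at 29.7, 30.4 and 30.1 CPM with siBDNF, which was not called. FADS1 fell with siNTRK2 by 0.15. The summed level of the 6 genes was 1212 ± 25.6 CPM with siNTRK2 and 1286 ± 21.2 CPM with siBDNF, beside 1266 ± 7.73 in siCtrl_Sen (mean ± SD, n = 3).

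Of the 15 siBDNF calls, 7 held under every other test, scaling, filter and offset and with any library left out (INSIG1, INSIG2, HMGCS1, IDI1, SC5D, ABCA1 and FADS2), and of the 10 siNTRK2 calls 3 did (DHCR7, SCAP and FADS2). With siBDNF, the length and GC offset ended the call of STARD4, whose value went to 0.13 (edgeR adjusted p = 0.226), and those of PMVK (0.262) and FDPS (0.0821). Library totals ended those of SCAP, DHCR7, FDPS, FDFT1 and PMVK (0.0951 to 0.222), and leaving out the low-count filter those of MSMO1 (0.0713) and FDFT1 (0.105). With siNTRK2, the offset ended the calls of TM7SF2 (0.0554) and ELOVL6 (0.0805), library totals that of CYP51A1 (0.0948), leaving out the filter those of CYP51A1 (0.0516) and FADS1 (0.0519), and a fit of only the 2 groups compared that of SREBF2 (0.0502). With libraries left out, the rise of MSMO1 with siBDNF was lost without either siCtrl_Sen replicate 1 or 3 (edgeR adjusted p = 0.12 and 0.119), any siBDNF_Sen replicate (0.0753, 0.0558 and 0.0983), siCtrl_Prolif replicate 2 (0.051) or siNTRK2_Sen replicate 2 (0.0512). That of STARD4 was lost without any siCtrl_Sen replicate (0.0822, 0.0562 and 0.0941) or siBDNF_Sen replicate 1 or 2 (0.0853 and 0.141), and that of CYP51A1 without siCtrl_Sen replicate 1 (0.202) or siBDNF_Sen replicate 1 or 3 (0.101 and 0.14). Among the decreases, those of SCAP and DHCR7 with siBDNF were lost without siCtrl_Sen replicate 1 or 3 or siBDNF_Sen replicate 1 or 2 (0.0564 to 0.184), FDPS without siCtrl_Sen replicate 3 or siBDNF_Sen replicate 1 or 2 (0.0739 to 0.132), FDFT1 without any of 6 libraries (0.054 to 0.195), and PMVK without any of 7 (0.0526 to 0.328). With siNTRK2, HMGCS1 was lost without siNTRK2_Sen replicate 3 (0.0707), ELOVL6 without that library or siCtrl_Sen replicate 3 (0.166 and 0.109), TM7SF2 without siCtrl_Sen replicate 1 or 3 (0.0547 and 0.0874), FDFT1 without those or siNTRK2_Sen replicate 1 (0.0583 to 0.114), FADS1 without siCtrl_Sen replicate 3 or siNTRK2_Sen replicate 2 (0.0725 and 0.0531), SREBF2 without siCtrl_Sen replicate 1 or 2 or siNTRK2_Sen replicate 2 or 3 (0.0536 to 0.198), and CYP51A1 without any of 9 libraries (0.0517 to 0.22).

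The difference between the silencings was tested directly, in siNTRK2_Sen against siBDNF_Sen. No member was higher with siNTRK2 and 10 were lower, beside 8.86% and 7.96% of all tested genes, and the median of the 31 was -0.14. In order of size the 10 were INSIG1 (-0.63 ± 0.054 SE, edgeR adjusted p = 8.31e-10), IDI1 (-0.39 ± 0.068 SE, edgeR adjusted p = 1.37e-04), ABCA1 (-0.38 ± 0.060 SE, edgeR adjusted p = 2.47e-05), SC5D (-0.36 ± 0.083 SE, edgeR adjusted p = 0.003), CYP51A1 (-0.34 ± 0.058 SE, edgeR adjusted p = 1.04e-04), HMGCS1, SREBF2, DHCR7, FASN and SCD, the last 5 at -0.21, -0.21, -0.20, -0.18 and -0.14. For FASN the libraries of the 2 groups overlapped, at 163 to 201 CPM and 199.9 to 214 CPM. MSMO1 was at -0.47 ± 0.16 (SE; edgeR adjusted p = 0.072) and was not called here, though the 2 groups did not overlap, and DESeq2 called it (adjusted p = 0.0154). STARD4 stood at -0.14 (-0.31 to 0.03) and INSIG2 at -0.20 (-0.40 to 0.01). No gene was called higher by DESeq2 either, and 2 (FDPS and MVK) had an edgeR p under 0.05 before adjustment in that direction.

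Fibroblast markers also differed between the silencings, with 7 of 8 higher in siNTRK2_Sen than in siBDNF_Sen and summed levels of 27044 to 29956 and 23855 to 24421 CPM, and so did the 6 markers of proliferation and arrest, 4 higher and 2 lower. Their part in the differences of the sterol genes was not tested.

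Other genes of the pathway were counted from lists of neighbouring functions. The shares of all tested genes to set beside each count are those given above: 29.8% higher and 28.3% lower in senescence, 11.2% and 10.1% with siNTRK2, and 10.4% and 10.1% with siBDNF. Of 9 partners of SREBP processing and sterol sensing, 1 rose and 3 fell in senescence (11.1% and 33.3%, the latter near the share of all genes), 3 rose and 2 fell with siNTRK2, and 3 rose and 2 fell with siBDNF (33.3% and 22.2% in both). PAQR3, which tethers SCAP and SREBP to the Golgi, changed by -0.64 in senescence and 0.50 with siBDNF, and RNF139, a ubiquitin ligase of this system, by 0.46 with siBDNF. Of 13 further lipogenic targets, 4 rose and 8 fell in senescence, 2 rose and 4 fell with siNTRK2, and 2 fell with siBDNF. The 2 that fell with siBDNF were PCYT2 (-0.27) and ACSS2 (-0.22, log2). SCD5, a second stearoyl-CoA desaturase, rose in senescence by 0.89 ± 0.065 (SE; edgeR adjusted p = 1.33e-12), the other way from SCD. TMEM97, a sterol-regulated membrane protein, changed by -0.67.

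Of 11 genes of the non-sterol branches (ubiquinone, dolichol and protein prenylation), 4 rose and 4 fell in senescence (36.4% each), 1 fell with siNTRK2 (9.09%), and 2 rose and 1 fell with siBDNF (18.2% and 9.09%). COQ2, which attaches the prenyl tail of ubiquinone, changed by -0.80 in senescence. Of 12 genes of LXR signalling, cholesterol storage and oxysterol synthesis, 11 were tested, of which 4 rose and 4 fell in senescence (36.4% each), 1 rose and 3 fell with siNTRK2 (9.09% and 27.3%), and 2 rose and 3 fell with siBDNF (18.2% and 27.3%). ABCG1, the partner exporter of ABCA1, rose in senescence by 1.55 ± 0.23 (SE; edgeR adjusted p = 1.72e-06) from a low level of 0.718 ± 0.214 to 2.18 ± 0.225 CPM. CH25H, which makes an oxysterol from cholesterol, fell by 2.16 from 0.968 ± 0.0419 CPM. PLTP, the phospholipid transfer protein, rose in senescence by 0.78, rose further with siNTRK2 by 0.28 and fell with siBDNF by 0.40 (log2).

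**Figure D4:**
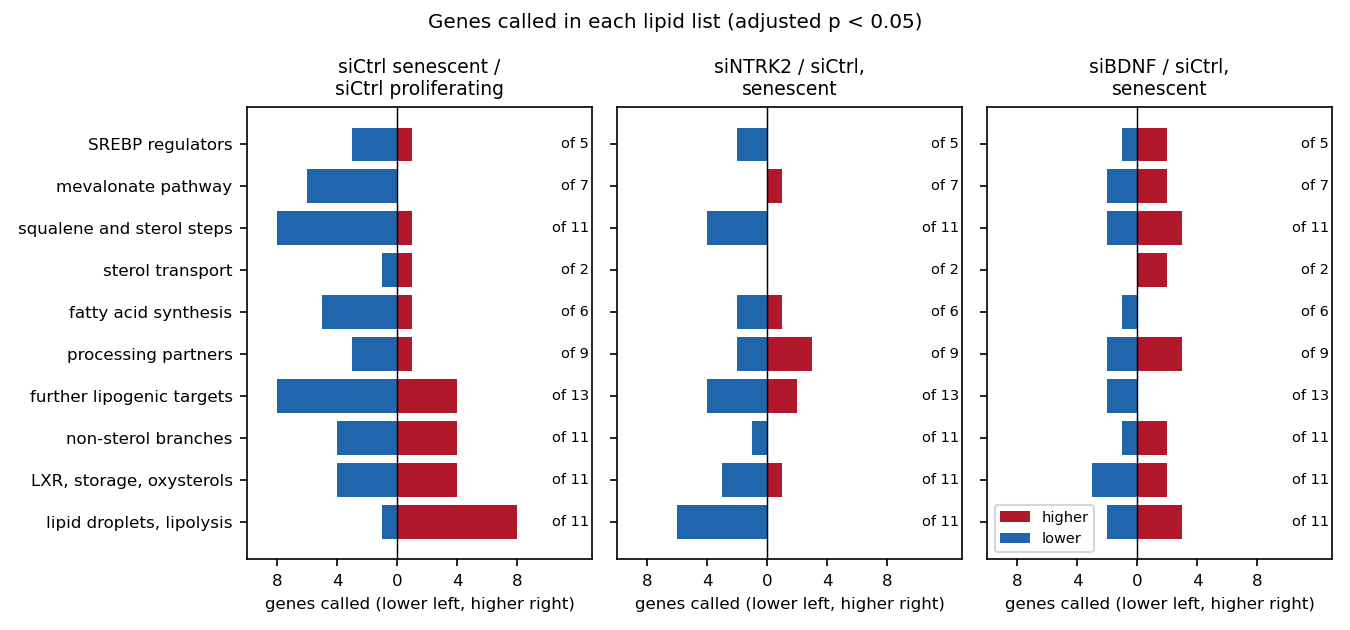
Number of genes called higher (red, to the right) and lower (blue, to the left) at an adjusted p under 0.05 in each list, with the number tested at the right edge, for the 3 comparisons. In senescence most synthesis genes are on the lower side and 8 of 11 lipid droplet genes on the higher side.

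Of 11 genes of lipid droplets and lipolysis, 8 rose and 1 fell in senescence (72.7% and 9.09%, beside 29.8% and 28.3% of all tested genes), with a median of 0.48. The adipocyte markers rose in the same comparison, from the low levels given above, and their part in these values was not tested. DGAT2, which makes triglyceride, held 1.74, 1.31 and 2.11 CPM in proliferating and 9.62, 9.03 and 8.69 CPM in senescent libraries, a rise of 2.45 ± 0.13 (SE; edgeR adjusted p = 7.07e-16) between groups that were far apart. FITM2 and PLIN3, a droplet-forming and a droplet-coating protein, rose by 0.72 and 0.58. With siNTRK2, 6 of the 11 fell (54.5%, beside 10.1%) and the other 5 were not called, and DGAT2 changed by -0.68 ± 0.11 (SE; edgeR adjusted p = 3.76e-05). With siBDNF, 3 rose and 2 fell (27.3% and 18.2%, beside 10.4% and 10.1%), among them DGAT2 at 0.52 ± 0.10 (SE; edgeR adjusted p = 5.47e-04) and G0S2, an inhibitor of lipolysis, at 0.80 ± 0.068 (SE; edgeR adjusted p = 1.26e-09). DGAT2 stood at 5.72, 5.44 and 5.92 CPM with siNTRK2 and at 13.1, 13.5 and 12.5 CPM with siBDNF, on either side of the siCtrl_Sen libraries, and the direct difference was -1.19 ± 0.11 (SE; edgeR adjusted p = 2.09e-09).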

How the data were processed

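Total RNA of 12 WI-38 cultures was sequenced as mRNA libraries of a stranded kit. Per the labels, the authors used bcl2fastq, cutadapt, STAR and featureCounts on hg19 (GRCh37) and deposited whole-number read counts per gene for each library, without normalization. Whether counting used strand is not given in the sources used here. Here the deposited counts (31567912 to 72328151 per library) were filtered with edgeR's filterByExpr, which left 21518 genes, scaled by TMM and fitted with 1 term per group over all 12 libraries (edgeR 4.0.16, robust quasi-likelihood, R 4.3.3). Benjamini-Hochberg adjustment ran over all tested genes, and 0.05 was the threshold. Log2 intervals are the estimate ± 1.96 SE, with the SE taken from the F statistic of the quasi-likelihood test. This normal quantile makes them narrower than the test itself implies, so their 95% is nominal. Levels are TMM-scaled CPM, and a count of 3 corresponds to 0.0427 to 0.0916 CPM, counting error only.

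The 32 genes and the other lists were chosen with earlier results of these data known. Values per library are given for members with a called absolute log2 fold change over 0.5 in any of the 4 comparisons. Genes of each other list were named from the 3 with the largest called changes in a comparison. Not all of these were named, so a named gene need not have the largest change of its list. VPS51, FEN1, AKAP9, TCP1, MMAB and the windows shown were named after their values were seen. Gene positions and exon lengths came from GENCODE annotation on GRCh37. No replicate pair agreed within sampling noise. The fits were tested on simulated data. Alternatives were DESeq2 1.42.0, other scalings, filters, samples and a length and GC offset. The values of a gene that enters the counts of the neighbouring lists are not reported here.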

Additional observations from a re-analysis of the deposited data

Results flagged for a closer look

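The responses of 10 member genes to the 2 silencings differed by the direct test of siNTRK2_Sen against siBDNF_Sen (edgeR's quasi-likelihood test over 21518 genes). The log2 differences were -0.63 for INSIG1, -0.39 for IDI1, -0.38 for ABCA1, -0.36 for SC5D, -0.34 for CYP51A1 and -0.21 for SREBF2, and these 6 were called under every other test, scaling, filter and offset and with any library left out. HMGCS1 (-0.21) was not called without siNTRK2_Sen replicate 1 or siBDNF_Sen replicate 2 or 3 (adjusted p = 0.0867, 0.0774 and 0.0631), DHCR7 (-0.20) without siNTRK2_Sen replicate 2 or siBDNF_Sen replicate 3 (0.112 and 0.0967), and SCD (-0.14) without siNTRK2_Sen replicate 1 or 3 or siBDNF_Sen replicate 2 or 3 (0.0576 to 0.11). FASN (-0.18) was lost without any of 7 libraries (0.0516 to 0.268).

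In the other lists the gene with the largest such difference was DGAT2 at -1.19 for lipid droplets, PLTP at 0.68 for LXR signalling, RNF139 at -0.48 for sterol sensing, RCE1, a protease of prenylated proteins, at -0.44 for the non-sterol branches, and SCD5 at -0.29 for further lipogenic targets.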

How the results depend on the processing

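The 4 rises and 23 decreases in senescence kept their number under every statistical alternative except the length and GC offset, which gave 26 decreases by adding NSDHL, DHCR7 and PMVK; left-out libraries gave 23 to 24 decreases and medians of -0.53 to -0.44. Requiring a log2 change over 1, as the study did, left 6 decreases and 0 rises in senescence and 0 genes in either direction with siNTRK2, with siBDNF or between them. The offset gave 1 rise with siNTRK2 and 1 member higher with siNTRK2 than with siBDNF. Library totals gave 1 decrease and a median of 0.11 with siBDNF, and SCD was called higher with siBDNF under both of these settings (adjusted p = 0.0352 and 0.0123). With single libraries left out, siNTRK2 gave 0 to 3 rises and 4 to 8 decreases (4 without siCtrl_Sen replicate 3, and 0 rises without siNTRK2_Sen replicate 3), siBDNF 6 to 9 rises and 1 to 6 decreases (2 decreases without siCtrl_Sen replicate 1, and 1 without siCtrl_Sen replicate 3 or siBDNF_Sen replicate 1 or 2), and the comparison of the silencings 6 to 13 decreases (6 without siBDNF_Sen replicate 3). The cause was not tested. Of values that were not called, INSIG2 in senescence was 0.19 with the offset, and, with a library left out, PMVK in senescence was between -0.13 and 0.046 and with siNTRK2 SREBF1 was between -0.033 and 0.10, INSIG1 between -0.042 and 0.0020 and MSMO1 between -0.023 and 0.17. Deviations of same-numbered replicates had correlations of -0.256 to 0.241. With groups of 3 libraries, these values cannot show whether the numbers pair the libraries. The study reports that the groups of an in vitro experiment were kept together. The replicate block gave 4 rises and 23 decreases in senescence with a median of -0.47, 2 and 8 with siNTRK2 (median -0.05), 8 and 5 with siBDNF (0.05), and 0 and 11 between the silencings (-0.14). With siBDNF the block ended the calls of MSMO1 (adjusted p = 0.0797) and PMVK (0.0545). Groups of 3 libraries and 1 cell line limit all comparisons, and small silencing changes near 0.2 on the log2 scale lie close to the threshold at this depth.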
